A study of Mus musculus with 18 samples.

Results

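Acyl-CoA thioesterases were followed in liver RNA-sequencing of 18 mice, 1 library per mouse, through 7 genes of the Acot family: Acot1, Acot2, Acot3, Acot4, Acot8, Acot12 and Acot13. They are 7 of the 52230 genes with transcripts in the tables. They were chosen by symbol from a list drawn up by what the genes encode, with no measured value in the rule. Earlier results of these data were known when the list was drawn up. The mice carried GKRP, the liver protein that binds and inhibits glucokinase and is encoded by Gckr, either as the wild-type 446P form (PP) or as the 446L form (LL) made by a knock-in of a proline-to-leucine substitution. There were 4 males of each genotype and 5 females of each genotype, all on standard chow. By their own labels male PP mice were aged 9 to 14 weeks, male LL mice 13 or 14 weeks, female PP mice 9 to 14 weeks and female LL mice 11 to 14 weeks, whereas the series' design states 14 weeks throughout. The knock-in is carried in every cell, all mice come from 1 knock-in line, and no liver cell type was separated. Fewer cells of a type and less RNA per cell therefore cannot be told apart in any value below.

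Acyl-CoA thioesterases split an acyl-CoA into the free acid and coenzyme A, the reverse of what acyl-CoA synthetases do, and so set the balance between activated and free fatty acids in each compartment of the hepatocyte. Acot1 encodes the cytosolic and Acot2 the mitochondrial enzyme for long-chain acyl-CoAs, Acot3 and Acot4 encode peroxisomal enzymes, the latter with a preference for succinyl-CoA and other dicarboxylic acyl-CoAs, and these are close relatives in a gene cluster. Acot8 encodes a peroxisomal enzyme of broad range, Acot12 a cytosolic acetyl-CoA hydrolase and Acot13 (also called Them2) a small enzyme linked to mitochondria, and these are built on another protein fold. Several of the clustered genes are known in mouse liver as targets of PPARα, the nuclear receptor that senses fatty acids.

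The clustered genes lie side by side on the plus strand of chromosome 12 (GRCm39, GENCODE release M39). Acot2 (ENSMUSG00000021226) spans chr12:84034428-84040647, Acot1 (ENSMUSG00000072949) chr12:84056256-84065145, Acot4 (ENSMUSG00000052392) chr12:84085081-84095375 and Acot3 (ENSMUSG00000021228) chr12:84098918-84107176. Acot8 (ENSMUSG00000017307) lies on the minus strand at chr2:164631348-164647353, Acot12 (ENSMUSG00000021620) on the plus strand at chr13:91889396-91935688 and Acot13 (ENSMUSG00000006717) on the minus strand at chr13:24998351-25015547. The 250 bases before the annotated start of the canonical transcript are shown for the 4 clustered genes, since these neighbours were the 4 members called by sex in PP mice. They are printed 5′ to 3′ on the plus strand, and capitals mark the letters CCAAT and TATAAA on either strand.
Acot2, chr12:84034178-84034427: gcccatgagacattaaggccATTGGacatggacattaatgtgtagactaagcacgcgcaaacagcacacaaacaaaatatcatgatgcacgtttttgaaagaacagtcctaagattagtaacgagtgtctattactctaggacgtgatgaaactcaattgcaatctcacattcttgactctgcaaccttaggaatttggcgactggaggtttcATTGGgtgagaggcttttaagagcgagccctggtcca
Acot1, chr12:84056006-84056255: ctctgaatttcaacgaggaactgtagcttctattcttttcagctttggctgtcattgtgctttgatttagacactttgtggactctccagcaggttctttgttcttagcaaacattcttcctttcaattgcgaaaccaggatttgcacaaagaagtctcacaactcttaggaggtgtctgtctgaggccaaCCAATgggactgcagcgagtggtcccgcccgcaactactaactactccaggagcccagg
Acot4, chr12:84084831-84085080: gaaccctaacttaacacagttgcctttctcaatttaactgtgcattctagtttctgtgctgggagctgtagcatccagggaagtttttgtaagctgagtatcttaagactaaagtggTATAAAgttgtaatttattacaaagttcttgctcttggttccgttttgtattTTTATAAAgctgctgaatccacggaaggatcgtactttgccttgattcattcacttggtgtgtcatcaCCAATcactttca
Acot3, chr12:84098668-84098917: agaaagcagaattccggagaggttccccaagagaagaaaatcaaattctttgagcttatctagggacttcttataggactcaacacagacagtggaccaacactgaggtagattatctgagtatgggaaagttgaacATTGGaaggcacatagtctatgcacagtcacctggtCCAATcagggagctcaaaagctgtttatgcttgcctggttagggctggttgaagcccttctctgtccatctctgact
CCAAT was present in the windows of 5 of the 7 members, Acot1, Acot2, Acot3, Acot4 and Acot8, and in 36.8% of the 10937 windows of the same length before tested genes. TATAAA was present in Acot4 alone of the 7, and in 7.67% of all windows. These 2 motifs were picked after the sequences were seen. Of 2 other motifs, the direct repeat of AGGNCA spaced by 1 base (any base N), as bound by PPARα with its partner, was in 0 of the 7 members and 0.338% of all windows, and TTCNNNGAA, as bound by STAT proteins, was in 0 of the 7 and 6.67% of all windows. Both strands were searched, and the 2 later TATAAA matches in Acot4 overlap each other on opposite strands. No match says only that these letters are not in this window.

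How far the reads of a member can be told from those of its neighbours bears on every value. The coding sequences of Acot1 and Acot2 were identical at 95.3% of aligned bases, Acot2 and Acot3 at 84.6%, Acot1 and Acot3 at 83.9%, and Acot4 and the other three at 74.2% to 75.1%. Of the words of 31 bases in the transcripts of a gene, 34.9% in Acot2, 28.4% in Acot3, 22.8% in Acot1 and 19.9% in Acot4 also occurred in another gene, against 10.6% in Acot8, 5.245% in Acot12 and 0% in Acot13. The longest run that Acot1 (chr12:84063780-84064052) and Acot2 (chr12:84039502-84039774) share in their coding sequence is 273 bases, printed on the plus strand because a read inside it could have come from either gene.
Acot1 and Acot2: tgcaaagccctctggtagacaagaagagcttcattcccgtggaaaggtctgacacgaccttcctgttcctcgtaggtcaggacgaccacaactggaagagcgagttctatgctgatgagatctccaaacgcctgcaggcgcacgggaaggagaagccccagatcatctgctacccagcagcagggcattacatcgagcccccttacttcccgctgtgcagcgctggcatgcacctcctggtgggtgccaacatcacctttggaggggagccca
Acot3 (chr12:84100453-84100563) and Acot4 (chr12:84085479-84085589) share a run of 111 bases.
Acot3 and Acot4: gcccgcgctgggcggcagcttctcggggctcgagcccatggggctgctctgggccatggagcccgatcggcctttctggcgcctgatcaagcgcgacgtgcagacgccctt
Acot1 and Acot3 share a run of 203 bases, and the gene with which Acot3 shared most of its words was Gm49366 (24.5%), as Acot1 and Acot2 did with each other (16.7% and 27.3%). How the reads were split among the 4 clustered genes is thus uncertain, most of all between Acot1 and Acot2. Acot1 with Acot2, and Acot3 with Acot4, were also tested as 1 merged feature each, which does not cover reads shared across these pairs. Acot3 and Acot4 further overlap Gm49366, a gene model on the same strand, and the lncRNA 4732463B04Rik on the opposite strand. Gm49366 was at 0 in 12 of the 18 libraries and at most 90.3 normalized counts, and 4732463B04Rik had 3.15 to 64.2. Acot8 overlaps Snx21, with 6.29 to 25.2 normalized counts, and Zswim3 on the opposite strand. The strand setting of the counting is not given in the sources used here, so reads of overlapping genes on opposite strands cannot be told apart.

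The libraries held between 3794671 and 6613905 estimated counts. Every pair of libraries of 1 group differed by more than counting noise. The labels do not say that mice of a group came from separate litters or cages, so the spread between them is that of these mice. The 8 hepatocyte markers, Alb, Ttr and others, summed to 398420 to 841500 normalized counts per library, while Adipoq and Lep (adipocyte), Ckm, Acta1 and Myh6 (muscle), Umod and Slc34a1 (kidney) and Ctrb1 (exocrine pancreas) were at 0 in every library. Other genes of these lists were above 0. The 4 exocrine pancreas markers summed to 27.6 to 111 normalized counts per library. The adipocyte, muscle and kidney lists summed to at most 1.2, 2.47 and 0.909. The fragment length implied by the effective transcript lengths was 203 to 582 bases in male LL and 396 to 630 bases in male PP libraries, and 247 to 376.5 bases in female LL and 369 to 631 bases in female PP libraries. In the genotype comparisons the summed levels of 2 marker lists did not overlap between groups. The 5 cholangiocyte markers were at 54.4 to 73.1 normalized counts in male LL and 74.7 to 117.5 in male PP mice, and the 5 Kupffer cell markers at 448 to 722 in female LL and 753 to 932 in female PP mice. Mitochondrial genes took 8.52% to 10.6% in male PP, 9.96% to 17.9% in male LL, 9.09% to 12.0% in female PP and 10.5% to 13.7% of the counts in female LL mice, with the highest in male LL mouse 1. The part of these markers and of this share in the results on genotype was not tested.

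The first comparison asks whether the LL form changed thioesterase expression in males. Acot3, one of the peroxisomal members, had 40.0, 8.39, 84.6 and 90.9 normalized counts in male PP mice 1 to 4, and 430.3, 309, 190.1 and 43.2 in male LL mice 1 to 4. Normalized counts are estimated counts divided by the size factor of the library. LL mice 1, 2 and 3 were above every PP mouse, whereas LL mouse 4 lay within the PP range, so the groups overlapped. Acot3 was 4.33-fold higher in LL mice (log2 fold change 2.11 ± 0.61 SE, DESeq2 Wald test with Benjamini-Hochberg adjusted P = 0.0470). With edgeR's quasi-likelihood test the adjusted P was 0.332.

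Acot4, the peroxisomal neighbour, had 213, 124, 368 and 338 normalized counts in male PP mice and 749, 499, 436 and 291 in male LL mice. Acot1, the cytosolic enzyme, had 81.6, 48.3, 128 and 114 in male PP mice and 202, 346, 261 and 60.5 in male LL mice. Acot2, its mitochondrial relative, had 11.2, 7.34, 24.4 and 15.3 in male PP mice and 38.9, 63.5, 31.2 and 14.0 in male LL mice. The order was alike in all 4 clustered genes, with LL mice 1 to 3 above the whole PP group, LL mouse 4 inside the PP range and PP mouse 2 lowest. None of these 3 genes passed the test. The log2 fold changes were 0.92 ± 0.31 for Acot4, 1.22 ± 0.49 for Acot1 and 1.31 ± 0.43 for Acot2 (SE). DESeq2 gave an adjusted P of 0.137 for Acot4 and 0.282 for Acot1, and none for Acot2, whose unadjusted p was 0.00223. The 95% intervals ran from 0.31 to 1.52 for Acot4, from 0.27 to 2.18 for Acot1 and from 0.47 to 2.15 for Acot2 on the log2 scale.

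The members outside the cluster showed smaller differences by genotype in males. Acot13, the small mitochondria-linked enzyme, had 179, 154, 198 and 166 normalized counts in male PP and 237, 225, 184 and 286 in male LL mice, with a log2 fold change of 0.42 ± 0.21 (SE, adjusted P = 0.408). LL mouse 4, the lowest LL mouse for the clustered genes, was the highest for Acot13. Acot12, the acetyl-CoA hydrolase, had 366, 363, 409.9 and 415 normalized counts in male PP and 473, 486, 427 and 376 in male LL mice (log2 fold change 0.18 ± 0.13, SE, adjusted P = 0.656). Acot8, the peroxisomal enzyme of broad range, had 25.6, 26.2, 28.2 and 31.5 in male PP and 20.7, 21.6, 37.5 and 24.8 in male LL mice (log2 fold change -0.08 ± 0.32, SE, unadjusted p = 0.804). The sign for Acot8 was positive on the log2(TPM + 1) scale (0.22), where the median over all genes was 0.25.

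Thus 1 of the 7 members, Acot3, was called higher in male LL mice by DESeq2 and none lower, where called means an adjusted P below 0.05 together with a fold change that reached 1.3 or fell to 0.7 or less. Over all 10938 genes tested, 0.21% were called higher. DESeq2 gave an adjusted P to only 3301 of them, and none to Acot2 and Acot8. A gene without an adjusted P could not be called. With DESeq2's independent filtering off, 10930 genes had an adjusted P and 17 were called higher, against 23 with it on. The adjusted P of Acot3 was then 0.0956. With edgeR 0 of the 7 members were called, against 0.0183% of all genes, and 5 members had an unadjusted p below 0.05 by either tool, all higher in LL mice, against 3.84% of all genes higher at that limit by DESeq2. In no member were the male groups free of overlap, against 1.8% of all genes that were higher in every LL than in every PP mouse. The median log2 fold change was 0.92 over the 7 members and 7.9e-05 over all genes tested.

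**Figure D1:**
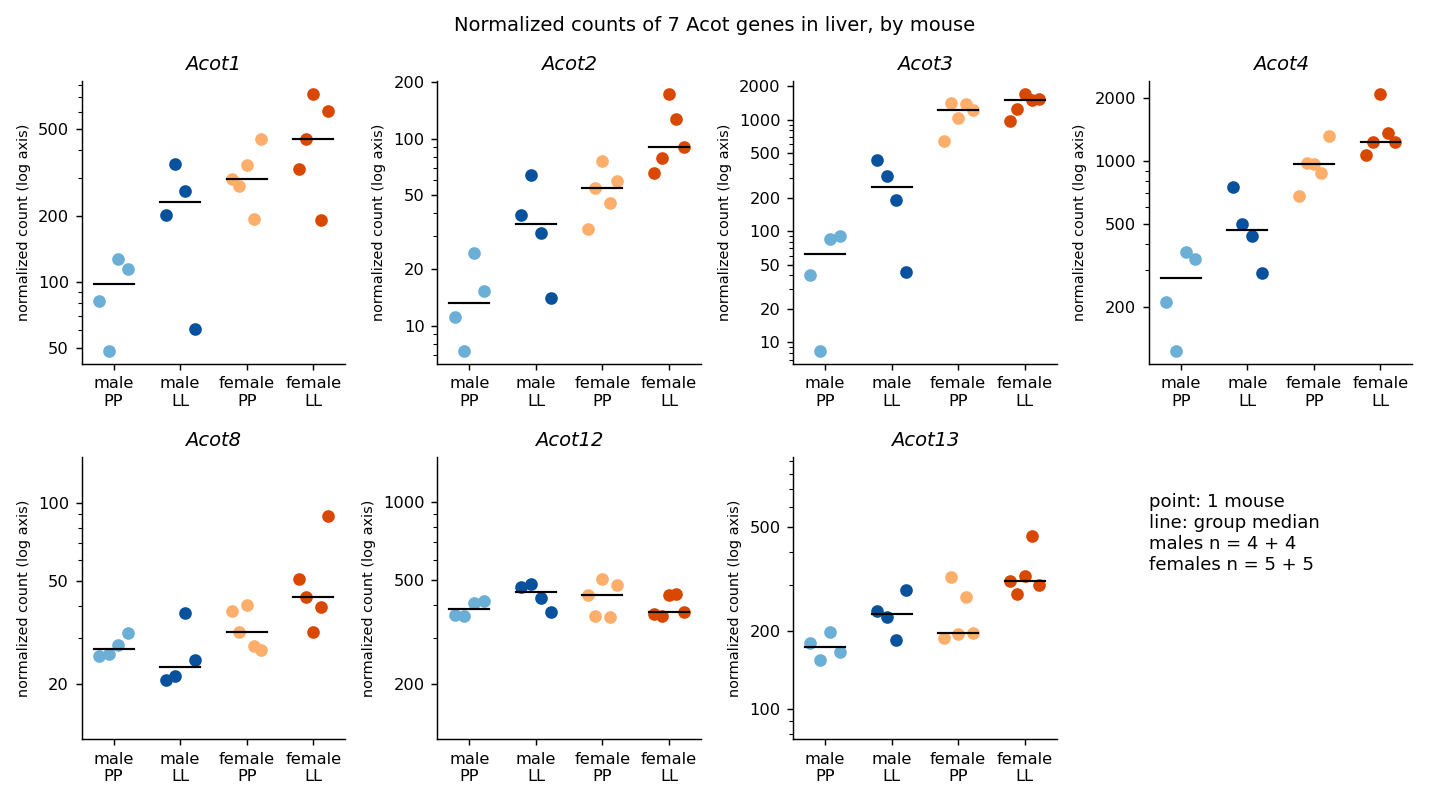
Normalized count (log axis, a panel per gene) of the 7 Acot genes in each of the 18 livers, with 1 point per mouse and a line at the group median. In Acot1, Acot2, Acot3 and Acot4 one male LL mouse (LL 4, the rightmost male LL point) sits in the male PP range and the other male LL mice sit above it, while Acot12 stays between 361 and 504 in all groups.

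The call for Acot3 in males rested on single libraries and settings. Without male LL mouse 4 the difference was 2.46 ± 0.53 on the log2 scale (SE, adjusted P = 0.00161), and Acot1 at 1.53 ± 0.38 (adjusted P = 0.0144) and Acot2 at 1.58 ± 0.41 (adjusted P = 0.0306) were called as well. Without male PP mouse 2, which had 8.39 normalized counts, Acot3 was at 1.75 ± 0.54 (SE) and its adjusted P was 0.255. Without male PP mouse 3, Acot4 was called at 1.13 ± 0.33 (SE, adjusted P = 0.0454). Acot3 was called in 13 of the 31 alternative analyses that gave it an adjusted P, with adjusted P from 0.00161 to 0.428. It was also not called when male PP 1, male LL 1 or 2, female PP 2 or 5, or female LL 3, 4 or 5 was left out, with adjusted P from 0.0543 to 0.428. With fragment length as a term the log2 fold change of Acot3 was 1.85 ± 0.67 (SE, adjusted P = 0.327), and with age as a term it was 2.08 ± 0.62 (SE, adjusted P = 0.133). Merged with Acot4, the pair had a log2 fold change of 1.22 ± 0.34 (SE, adjusted P = 0.0483), and Acot1 merged with Acot2 one of 1.23 ± 0.46 (SE, adjusted P = 0.206).

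**Figure D2:**
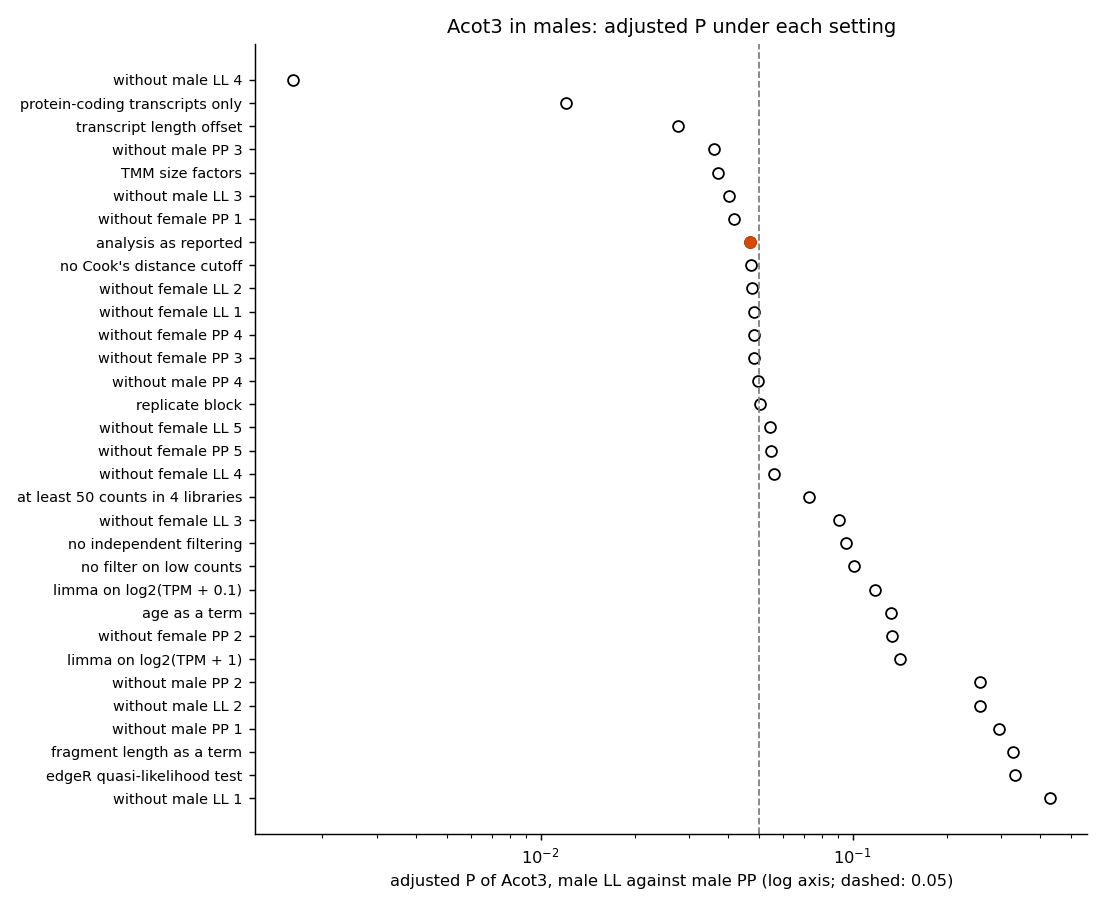
Adjusted P of Acot3 in male LL against male PP mice (log axis) in the analysis as reported (filled point, 0.0470) and in the 31 alternatives that gave one (open points), with a dashed line at 0.05. The alternatives run from 0.00161 without male LL 4 to 0.428 without male LL 1, and many lie close to the line.

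In females no member passed the test by genotype. Acot2 had 32.7, 54.5, 75.5, 45.3 and 59.0 normalized counts in female PP mice 1 to 5 and 65.6, 79.0, 173, 127 and 89.7 in female LL mice 1 to 5. Only LL mouse 1 was below the highest PP mouse. DESeq2 gave a log2 fold change of 1.00 ± 0.34 (SE, adjusted P = 0.110), with a 95% interval from 0.34 to 1.66. In a fit of the female libraries alone it was 1.00 ± 0.28 (SE, adjusted P = 0.0332).

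Acot13 had 187, 323, 194, 269 and 195 normalized counts in female PP mice and 310.5, 277, 324, 462 and 299.8 in female LL mice. PP mice 1, 3, 4 and 5 were below every LL mouse, and PP mouse 2 lay among the LL mice. The log2 fold change was 0.52 ± 0.18 (SE, adjusted P = 0.125), and without female PP mouse 2 it was 0.66 ± 0.17 (SE, adjusted P = 0.0359).

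Acot8 had 38.3, 31.8, 40.3, 28.1 and 27.1 normalized counts in female PP and 51.0, 43.5, 31.7, 39.5 and 88.6 in female LL mice, with a log2 fold change of 0.61 ± 0.26 (SE, adjusted P = 0.233). It fell to 0.32 ± 0.23 without LL mouse 5, the highest. Acot4 had 677, 981, 971, 874 and 1316 normalized counts in female PP and 1066, 1232, 2090.5, 1357 and 1233 in female LL mice (log2 fold change 0.53 ± 0.27, SE, adjusted P = 0.338). For both genes the ranges overlapped.

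Acot1 had 295, 275, 343, 193 and 451 normalized counts in female PP and 329.6, 450.5, 726, 191 and 605 in female LL mice (log2 fold change 0.56 ± 0.43, SE, adjusted P = 0.570). Acot3 had 648, 1407, 1042, 1394 and 1234 in female PP and 974, 1250, 1706, 1493 and 1534 in female LL mice (log2 fold change 0.28 ± 0.53, SE, adjusted P = 0.856). Its 95% interval, from -0.77 to 1.33, includes no difference and leaves a range of differences in either direction. Acot12 stayed between 361 and 504 normalized counts in all 10 females (log2 fold change -0.11 ± 0.12, SE, adjusted P = 0.719).

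With DESeq2 0 of the 7 members were called in females, against 0.366% of all genes called higher, and with edgeR 0 of the 7 against 0%. By either tool 3 members had an unadjusted p below 0.05, Acot2, Acot8 and Acot13, and all were higher in LL mice, against 6.65% of all genes higher at that limit by DESeq2. Merged, Acot1 with Acot2 was at 0.64 ± 0.40 (SE, adjusted P = 0.444) and Acot3 with Acot4 at 0.40 ± 0.30 (SE, adjusted P = 0.546) on the log2 scale. No member had groups free of overlap, against 1.5% of all genes with every LL mouse higher. The median log2 fold change was 0.53 over the members and 0.01 over all genes. With fragment length, which was shorter in most female LL libraries, as a term, the log2 fold change was 0.89 ± 0.41 for Acot2 (adjusted P = 0.646) and 0.46 ± 0.22 for Acot13 (adjusted P = 0.653; SE).

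Whether the genotype effect differed between the sexes was tested as an interaction. With DESeq2 0 of the 7 members passed, against 0.119% of all genes (13 of 10938), and edgeR also gave 0. DESeq2 gave an adjusted P to only 1606 of these genes, and none to Acot2, Acot8 and Acot13, which could therefore not pass. With edgeR the adjusted P of these members was 0.94, 0.80 and 0.96. At an unadjusted p below 0.05 there was 1 member by either tool, Acot3, whose female effect was smaller than its male effect by 1.83 ± 0.81 on the log2 scale (interaction -1.83, SE 0.81, unadjusted p = 0.0234, adjusted P = 0.403), against 5.67% of all genes at that limit by DESeq2 in either direction. The 2 effects of Acot3, 2.11 in males and 0.28 in females, were thus not shown to differ after correction.

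**Figure D3:**
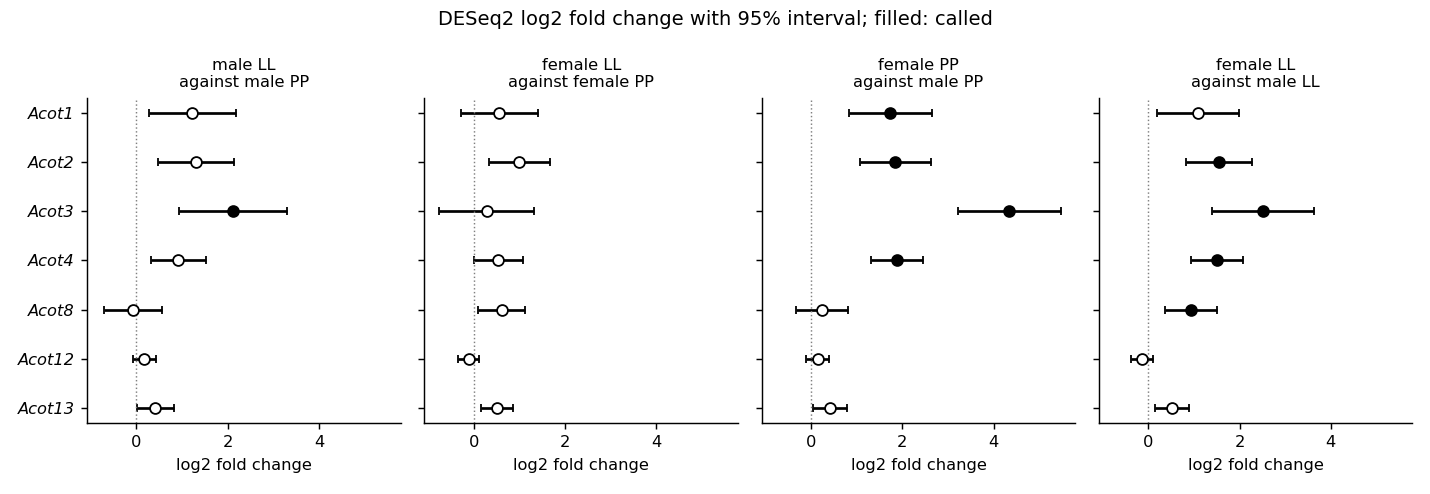
Log2 fold change of each Acot gene (points) with its 95% interval (bars) in the 4 contrasts, from 1 DESeq2 fit of 18 libraries. Filled points were called, which holds for Acot3 in males by genotype, for Acot1 to Acot4 in female against male PP mice and for Acot2, Acot3, Acot4 and Acot8 in female against male LL mice.

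In PP mice the difference by sex was called for all 4 clustered genes. Acot3 was 20.4-fold higher in female than in male PP mice (log2 fold change 4.35 ± 0.57, SE, DESeq2 adjusted P = 6.6e-12). The lowest female PP mouse had 648 normalized counts and the highest male PP mouse 90.9. Acot4 was 3.69-fold higher (1.88 ± 0.29, SE, adjusted P = 1.4e-08), Acot2 3.61-fold higher (1.85 ± 0.40, SE, adjusted P = 0.000180) and Acot1 3.34-fold higher (1.74 ± 0.46, SE, adjusted P = 0.00444). For each of these 4 genes every female PP mouse was above every male PP mouse. Merged, Acot1 with Acot2 was at 1.75 ± 0.43 (SE, adjusted P = 0.00159) and Acot3 with Acot4 at 2.73 ± 0.32 (SE, adjusted P = 8.6e-15) on the log2 scale. The other members did not pass, with log2 fold changes of 0.42 ± 0.19 for Acot13 (adjusted P = 0.213), 0.24 ± 0.29 for Acot8 (adjusted P = 0.776) and 0.15 ± 0.13 for Acot12 (adjusted P = 0.638).

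So 4 of the 7 members were called higher in female PP mice with DESeq2, against 3.68% of all genes, and 0 lower, with 0 at an unadjusted p below 0.05 in that direction by either tool. With edgeR 4 members were called higher, against 2.84% of all genes. The groups were free of overlap in 4 members, against 5.21% of all genes. All 4 stayed called in each of the 18 fits that left out a library, and the highest adjusted P in any alternative was 0.0373, for Acot1. Between the sexes the summed levels of 4 marker lists also did not overlap in PP mice. The hepatocyte markers were at 398420 to 507700 normalized counts in males and 723150 to 841500 in females, the 5 endothelial markers at 136 to 268 and 283 to 582, the 5 stellate cell markers at 295 to 627 and 746 to 1017, and the 4 exocrine pancreas markers at 82.8 to 111 and 38.2 to 80.6. The part of these in the results on sex was not tested.

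In LL mice 4 of the 7 members were called higher in females with DESeq2, against 3.33% of all genes, and 3 with edgeR, against 2.18%. None was called lower, and none had an unadjusted p below 0.05 in that direction. Acot3 was 5.73-fold higher (log2 fold change 2.52 ± 0.57, SE, adjusted P = 0.000549), Acot2 2.91-fold (1.54 ± 0.37, SE, adjusted P = 0.00133) and Acot4 2.83-fold higher (1.501 ± 0.29, SE, adjusted P = 2.4e-05). In these 3 genes every female LL mouse was above every male LL mouse, against 3.64% of all genes. For Acot2 the gap was narrow, between 65.6 normalized counts in the lowest female and 63.5 in the highest male. Merged with Acot1 it was not called, at 1.16 ± 0.43 on the log2 scale (SE, adjusted P = 0.0769), whereas Acot3 merged with Acot4 was, at 1.92 ± 0.32 (SE, adjusted P = 3.5e-07). The hepatocyte markers, at 493860 to 587020 in male and 611110 to 738080 in female LL mice, and the cholangiocyte markers, at 54.4 to 73.1 and 74.0 to 137, did not overlap either, and their part was not tested.

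Acot8 was also called in LL mice, at 1.91-fold (log2 fold change 0.93 ± 0.29, SE, adjusted P = 0.0259), but its ranges overlapped. It was not called with edgeR (adjusted P = 0.0501) or without female LL mouse 5, which had 88.6 normalized counts (0.63, adjusted P = 0.159), and it was called in 20 of 32 alternatives. It was also not called without male LL mouse 1, male LL mouse 2, male LL mouse 4 or female LL mouse 1, with adjusted P from 0.0536 to 0.107. Acot1 was 2.12-fold higher in female LL mice (log2 fold change 1.08 ± 0.46, SE) and did not pass (adjusted P = 0.141), though it did without female LL mouse 4 (1.28, adjusted P = 0.0232), which at 191 normalized counts was below 3 of the 4 male LL mice. It also passed on protein-coding transcripts alone (1.28, adjusted P = 0.0313) and among genes that reached 50 counts in 4 libraries (1.12, adjusted P = 0.0460). Acot13 was at 0.52 ± 0.19 (SE, adjusted P = 0.0748) and was called without male LL mouse 4 (0.63, adjusted P = 0.0359) or female PP mouse 2 (0.52, adjusted P = 0.0437), and among genes that reached 50 counts in 4 libraries (0.55, adjusted P = 0.0405). Acot12 was at -0.14 ± 0.13 (SE, adjusted P = 0.587).

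The members were then set side by side on a scale that accounts for length, the TPM summed per gene. Acot13 led in every male PP mouse, at 39.5 to 58.9 TPM, with a median of 41.9. Acot1 and Acot12 followed with medians of 21.7 and 20.5 TPM and overlapping ranges, then Acot4 at 5.27, Acot8 at 3.28, Acot3 at 1.98 and Acot2 at 0.659. Within the mouse, Acot1 was above Acot12 in only 1 of the 4 mice. The ranges of Acot4 and Acot8, Acot8 and Acot3, and Acot3 and Acot2 overlapped. The order of Acot4, Acot8, Acot3 and Acot2 within the mouse was nevertheless the same in each of the 4 mice.

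Female PP mice had another order. Acot13 (median 93.8 TPM), Acot3 (93.6) and Acot1 (91.7) stood at the top with overlapping ranges, followed by Acot4 at 41.3, Acot12 at 29.2, Acot8 at 7.17 and Acot2 at 4.76. Acot4 and Acot12, and Acot8 and Acot2, also overlapped. In female LL mice the medians were 143 TPM for Acot1, 106 for Acot13, 105 for Acot3, 53.4 for Acot4, 25.3 for Acot12, 7.65 for Acot8 and 7.63 for Acot2, and of neighbours in this order only Acot12 and Acot8 did not overlap. Male LL mice had medians of 74.5 TPM for Acot1, 72.9 for Acot13, 34.9 for Acot12, 15.5 for Acot3, 11.8 for Acot4, 4.17 for Acot8 and 2.39 for Acot2, with overlap between Acot1 and Acot13, Acot3 and Acot4, and Acot8 and Acot2. In male LL mice 1, 2 and 3 Acot3 lay at 26.3, 21.2 and 9.90 TPM and above Acot8, and in male LL mouse 4 it lay at 1.92 TPM and below Acot8, as in every male PP mouse.

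Summed over the 7 genes the level in males was 73.3 to 162 TPM with PP and 209 to 228 TPM with LL, and in females 275 to 498 TPM with PP and 363 to 679 TPM with LL. The 4 clustered genes together made up 20.8% to 34.7% of that sum in males with PP and 16.6% to 55.8% with LL, and 58.9% to 69.6% in females with PP and 54.4% to 72.8% with LL, where male LL mouse 4 was the one at 16.6%. These are descriptions with no test. The TPM scale itself moved between groups, since the median over all genes was higher by 0.56 on the log2(TPM + 1) scale in female than in male PP mice, by 0.25 in males with LL than with PP and by 0.23 in female than in male LL mice. On that scale limma also called Acot8 (0.91) and Acot13 (0.95) higher in female PP mice, against that median of 0.56. It called 6 of the 7 members higher there, beside 3707 of all 9599 genes tested on that scale. Short transcript models weigh heavily in TPM. Acot4-203, of 365 bases, took 1.27% of the estimated counts of Acot4 and 36.5% of its TPM. For Acot1, 52.9% of the TPM lay on Acot1-202 (622 bases), 45.0% on Acot1-204 (801 bases) and 0.956% on the full-length coding Acot1-201. Whether reads on the short models came from the full-length RNA was not tested, so the place of Acot1 in the orders above is uncertain. Gm49366, which overlaps Acot3 and Acot4, was at 0 in 12 of the 18 libraries. In female LL mouse 3 it had 105 TPM, beside 114.55 for Acot3. Its part in the TPM of Acot3 and Acot4 was not tested.

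**Figure D4:**
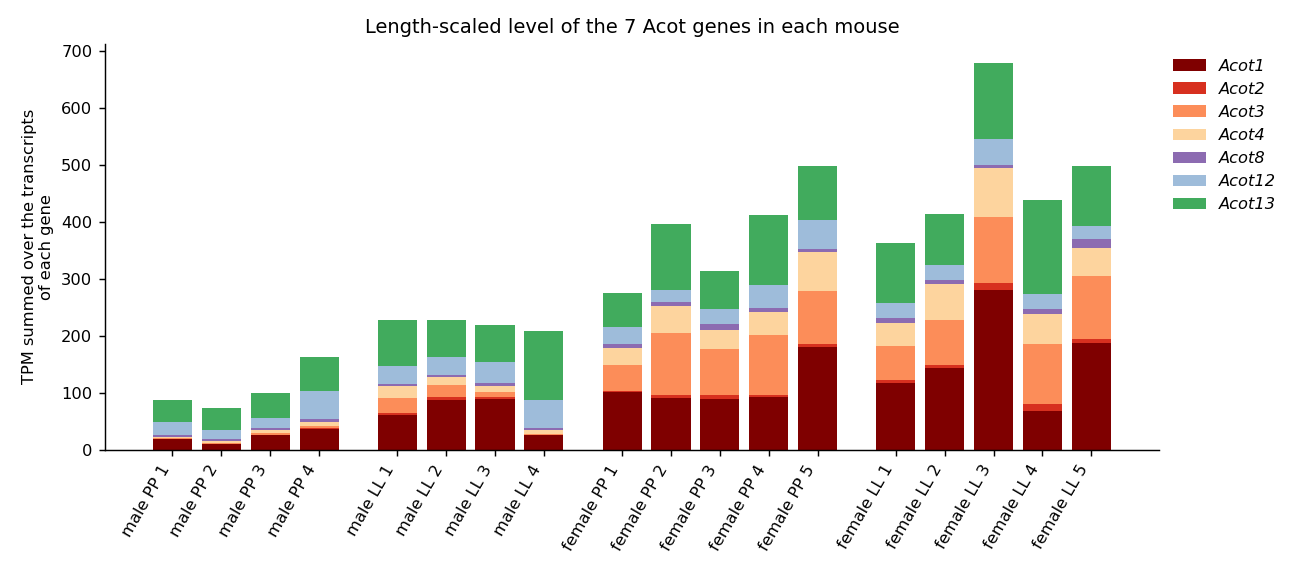
TPM of the 7 Acot genes stacked for each mouse, with bars starting at 0 and groups set apart. The clustered genes, in reds and yellow, take 20.8% to 34.7% of the bar in male PP and 54.4% to 72.8% in female LL mice, and the bar of male LL 4 is mostly Acot13 and Acot12.

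The transcript models on which the reads were placed differed among members. Acot2 had 1 model in the tables, and Acot13-201, Acot4-201 and Acot12-201 held 99.9%, 98.5% and 90.3% of the estimated counts of their genes. Acot1 was different, as the coding Acot1-201 of 2272 bases held only 3.904% of its counts, whereas Acot1-204, of 801 bases and with no defined coding sequence, held 50.6% and Acot1-202, of 622 bases, 39.5%. Acot3 was split between Acot3-201 (59.5%) and Acot3-202 (40.0%), both coding, and Acot8 between the coding Acot8-202 (68.4%) and the retained intron Acot8-203 (24.1%).

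The share on the main transcript was compared between groups for Acot1, Acot3 and Acot8, where at least 2 transcripts held at least 10% of the counts. In females the share of Acot8-202 was 66.5% ± 2.82 with LL and 78.3% ± 3.35 with PP (SD, 5 mice each, two-sided exact permutation p = 0.00794, the smallest this design allows, adjusted 0.0952 over 12 tests). The share of Acot3-201 was 65.3% ± 4.75 in females with LL and 55.3% ± 4.71 with PP (SD, 5 mice each, exact permutation p = 0.0238, adjusted 0.127). Neither passed after adjustment, nor did any other of the 12 tests. Acot8 had 20.7 to 88.6 normalized counts per library, so each of its shares rests on few reads, and fragment length differed along with genotype in females.

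Mice of 1 group differed in the clustered genes together, with weaker relations of Acot1 in females. Relations between members were measured over the 18 mice on deviations from the group mean of log2(normalized count + 1), so that neither sex nor genotype enters, with p-values from permutation of mice within groups and adjusted over all 21 pairs. Acot3 and Acot4 varied most alike (Pearson r = 0.88, permutation p = 8e-05, adjusted 0.00168; Spearman rho = 0.87, permutation p = 0.00018, adjusted 0.00189). Acot2 and Acot4 followed (r = 0.81, permutation p = 0.00083, adjusted 0.00686; rho = 0.88, permutation p = 4e-05, adjusted 0.00084), and Acot2 and Acot3 (r = 0.79, permutation p = 0.00098, adjusted 0.00686; rho = 0.73, permutation p = 0.0036, adjusted 0.0189).

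In all, 7 of the 21 pairs had adjusted p below 0.05 by both measures, with r from 0.59 to 0.88. Beside the 3 pairs above they were Acot1 with Acot2 (r = 0.68), Acot1 with Acot4 (r = 0.65), Acot2 with Acot12 (r = 0.70) and Acot4 with Acot12 (r = 0.59). Acot1 with Acot3 passed by Pearson's r alone (r = 0.67, adjusted permutation p = 0.0496) and Acot1 with Acot12 by Spearman's rho alone (rho = 0.58, adjusted permutation p = 0.0484). With the 2 mice farthest from the median of the first gene left out, r of the 7 pairs was 0.59 to 0.85. Within sexes r of these 7 pairs was 0.74 to 0.96 over the 8 males and 0.27 to 0.84 over the 10 females, the lowest being Acot1 with Acot2. Acot1 with Acot3, which is not among the 7, was at 0.87 in males and 0.098 in females. Neither Acot8 nor Acot13 had a pair that passed. The 4 clustered genes share sequence in every pair, and their reads were split by the same model in each library. Coding identity was 95.3% for Acot1 with Acot2, 84.6% for Acot2 with Acot3 and 74.2% for Acot3 with Acot4.

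**Figure D5:**
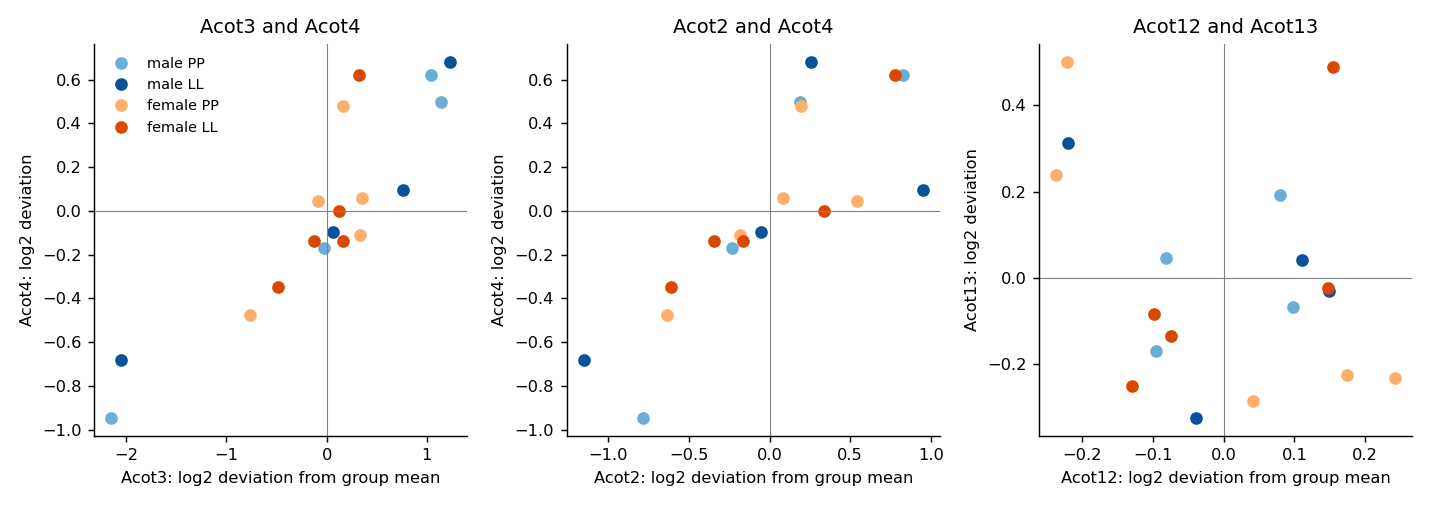
Log2 deviation of each mouse from its group mean for Acot3 and Acot4, Acot2 and Acot4, and Acot12 and Acot13, with 1 point per mouse coloured by group. In the left and middle panels the points run from lower left to upper right (r = 0.88 and 0.81), and in the right panel they do not (r = -0.29).

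The genes most like each member in these deviations were read off among the 3561 other genes with a mean of at least 100 normalized counts, as a description over 18 libraries, in each of which all genes share its depth. For Acot1 they were Pex11a, a peroxisome membrane protein (r = 0.92), and Sec14l2 (r = 0.90), for Acot2 the carnitine transporter gene Slc22a5 (r = 0.86) and Ugt2b34 (r = 0.84), and for Acot4 the fatty aldehyde dehydrogenase gene Aldh3a2 (r = 0.87) and the peptidase gene Mme (r = 0.87). For Acot3 they were Cyp4a10 (r = 0.92) and Cyp4a14 (r = 0.88), which encode fatty acid omega-hydroxylases, although Spearman's rho was only 0.66 and 0.62. For Acot12 they were Mtus1 and Gtf2h1 (r = 0.82 each), for Acot13 the sulfotransferase gene Sult1a1 (r = 0.92) and Hamp2 (r = 0.91), and for Acot8 Tns2 (r = 0.86) and the protease gene Tmprss6 (r = 0.83).

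Other genes of acyl-CoA metabolism were counted by list, with the lists also drawn up when earlier results of these data were known. Beside the shares of all genes called higher given above, 0.0731% were called lower in male LL mice, 0.293% in female LL mice, 2.77% in female against male PP and 2.79% in female against male LL mice. At an unadjusted p below 0.05 with DESeq2, 3.84% of all genes were higher and 3.99% lower in male LL mice, 6.65% and 6.4% in female LL mice, 9.21% and 8.28% in female against male PP mice, and 10.4% and 9.61% in female against male LL mice. Of the other thioesterases 8 of 13 could be tested, and 0 were called in either genotype contrast or by sex with DESeq2. By genotype in males only Baat of these had an adjusted P, so the others could not be called there. At an unadjusted p below 0.05 there was 1 higher in male LL mice, 0 in female LL against PP mice, 1 lower in female than in male PP and 1 lower in female than in male LL mice. Acot10 and Olah were at 0 in all 18 libraries and Acot5 in 16 of them, while Baat, which conjugates bile acids, had 672 to 1170.3 normalized counts.

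The acyl-CoA synthetases, which make the substrates of the thioesterases, had 2 of 15 tested genes called higher in male LL mice, Acsl5 and Acss3, and 0 lower, against 0.21% and 0.0731% of all genes. Acsl5 had 1198, 1135, 1256 and 1238 normalized counts in male PP and 2111, 1836, 1784 and 1798 in male LL mice, and every LL mouse, mouse 4 included, was above every PP mouse (log2 fold change 0.64 ± 0.17, SE, adjusted P = 0.0240). Acss3 had 28.8, 30.4, 58.3 and 53.1 in male PP and 139, 74.3, 136 and 42.1 in male LL mice (1.18 ± 0.32, SE, adjusted P = 0.0333). Male LL mice had 3 higher and 2 lower at an unadjusted p below 0.05, against 3.84% and 3.99% of all genes. Among the lower was a gene without an adjusted P, which could not be called. In females 0 were called by genotype, with 2 higher and 0 lower at an unadjusted p below 0.05, against 6.65% and 6.4% of all genes. By sex 3 were called higher and 0 lower in female PP mice, against 3.68% and 2.77% of all genes, and 2 higher and 1 lower in female LL mice, against 3.33% and 2.79%.

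Among 16 genes of peroxisomal acyl-CoA handling 2 were called higher in male LL mice and 0 lower, against 0.21% and 0.0731% of all genes. There were 5 higher and 1 lower at an unadjusted p below 0.05, against 3.84% and 3.99%. The lower gene had no adjusted P and could not be called. Abcd2, a transporter of very long-chain acyl-CoAs, had 20.8, 14.7, 2.82 and 13.5 normalized counts in male PP and 82.9, 19.2, 28.6 and 62.7 in male LL mice (1.95 ± 0.38, SE, adjusted P = 0.000397). Ehhadh, the bifunctional enzyme of peroxisomal beta-oxidation, had 1203, 818, 1364 and 1279 in male PP and 2473, 2586, 2176 and 1143 in male LL mice (0.84 ± 0.24, SE, adjusted P = 0.0458). LL mouse 4 lay within the PP range for Ehhadh but not for Abcd2. In females 0 were called by genotype, with 3 higher and 0 lower at an unadjusted p below 0.05, against the same 6.65% and 6.4%. By sex 3 were called higher and 3 lower in female PP mice, against 3.68% and 2.77% of all genes. Among LL mice it was 1 higher and 1 lower in females, against 3.33% and 2.79%.

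Of 23 other targets of PPARα 1 was called higher and 0 lower in male LL mice, against 0.21% and 0.0731% of all genes. The called gene was Cyp4a14, with 88.0, 10.5, 47.0 and 153 normalized counts in PP and 2486, 1260.0, 862 and 106 in LL mice (3.98 ± 0.70, SE, adjusted P = 1.9e-05). LL mouse 4 again lay within the PP range. At an unadjusted p below 0.05 there were 9 higher and 0 lower in male LL mice, against 3.84% and 3.99% of all genes, and 6 higher and 1 lower in female LL mice, of which 0 were called, against 6.65% and 6.4%. The median log2 fold change of the list was 0.32 in males and 0.19 in females, beside 7.9e-05 and 0.01 over all genes. By sex 6 were called higher in females with PP and 2 with LL, against 3.68% and 3.33% of all genes. In either genotype 0 were called lower, against 2.77% with PP and 2.79% with LL. With edgeR 0 of the 5 list genes named here were called in males, and the lowest adjusted P was 0.0626 for Cyp4a14.

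Of 12 tested genes that mark the phase of the circadian clock, against which many genes of lipid metabolism cycle in liver, 0 were called by genotype or by sex with DESeq2. At an unadjusted p below 0.05 there were 0 in male LL mice, 1 lower in female LL mice, 1 higher and 3 lower in female against male PP mice, and 2 higher and 1 lower in female against male LL mice. Time of harvest is not given in the sources used here, and its part in the differences between mice was not tested.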

How the data were processed

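RNA was extracted by the authors from mouse liver with Trizol and columns, and libraries were made from samples above an integrity limit. Per the labels, reads were checked with FastQC and assigned to GENCODE transcripts (release M26, GRCm39) with Salmon 1.4.0, which divides ambiguous reads among transcripts by likelihood. The deposited tables list estimated counts and TPM for 139225 transcripts in each of 18 libraries, 1 per mouse. The estimated counts deposited by the authors are not scaled between libraries, and the TPM values deposited by the authors are scaled to transcript length and library. Sequencing layout and strand setting are not given in the sources used here.

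Transcripts were joined to genes by GENCODE release M39 (137570 joined, 1655 left out), and at least 99.76% of the counts of a library were kept. Counts were summed per gene and rounded. The 10938 genes that reached 10 counts in 4 or more libraries were tested with DESeq2 1.42.0 in R 4.3.3 (median-of-ratios size factors, Wald test, 4 groups as levels, all 18 libraries) and called at an adjusted P below 0.05 and a fold change from 1.3 upwards or 0.7 downwards (no fold limit for the interaction). DESeq2 and these limits follow the study's methods, whereas the filter and the joint fit of the 4 groups were chosen here. An adjusted P that DESeq2 left empty was kept empty. Alternatives were edgeR 4.0.16, limma 3.58.1 on log2(TPM + 1) or log2(TPM + 0.1) for genes at a mean of at least 1 TPM, other filters and normalizations, transcript length, fragment length, age or replicate number as terms, protein-coding transcripts only, merged neighbours (Acot1 with Acot2, Acot3 with Acot4) and leaving out each library. Fragment length was taken as the median difference between length and effective length of transcripts of at least 3000 bases. The fitting steps were tried on simulated data, with changes planted only in the 2 genotype contrasts and only in genes of higher counts. This does not cover the contrasts by sex, the interaction or members with few counts. Named were all members, the 2 genes most like each and, per list, at most the 3 genes of smallest P called by genotype. The members and lists were chosen with earlier results of these data known. Replicate numbers in the labels were taken to name mice and not to pair them. The deviations of same-numbered PP and LL mice correlated at r from -0.17 to 0.16. Such values cannot show whether same-numbered mice shared a litter or were handled together.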

Additional observations from a re-analysis of the deposited data

Results flagged for a closer look

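For 2 of the 28 combinations of member and group, 1 mouse stood apart from the rest of its group by Dixon's test, and chance alone flags about 1 in 20. Female LL mouse 3 had 2090.5 normalized counts of Acot4, the highest of its group, with a gap to the next mouse of 0.716 of the range of the group against a limit of 0.71. Female LL mouse 4 had 462 normalized counts of Acot13, the highest of its group, with a gap of 0.746 of the range against the same limit. No genotype effect of a member differed between the sexes after correction, though DESeq2 gave Acot2, Acot8 and Acot13 no adjusted P for the interaction.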

How the results depend on the processing

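The number of members called was computed under 15 other settings (14 for the interaction) and in 18 fits that each left out 1 library. By genotype in males the 1 call became 0 under 10 settings: edgeR, no filter, at least 50 counts, no independent filtering, the 2 groups alone, fragment length, age, the replicate block and limma on either TPM scale. Leaving out 1 library gave 0 to 3. In females the count of 0 became 1 in the 2 groups alone (Acot2), and leaving out 1 library gave 0 to 1. In female against male mice, merging Acot1 with Acot2 and Acot3 with Acot4 gave 2 features called in PP mice, the 2 merged pairs, and 2 in LL mice, Acot3 with Acot4 and Acot8, while Acot1 with Acot2 was not called (1.16, adjusted P = 0.0769), and leaving out 1 library gave 4 in PP and 3 to 5 in LL mice. The interaction gave 0 throughout. The replicate block gave 0 in males, 0 in females, 4 in PP mice, 3 in LL mice and 0 for the interaction. Within each group age never falls as the number rises, so the block carries part of the age differences, and 5 of 18 libraries correlated best with their own number. The cause of these changes was not tested.

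Signs turned for members that were not called. With limma on log2(TPM + 1) and log2(TPM + 0.1) the median over all genes was itself 0.25 and 0.33 by genotype in males. For the interaction that median was -0.34 and -0.44, so a sign on these scales is to be read beside it. Acot8 in males was at 0.22 and 0.27 with limma on log2(TPM + 1) and log2(TPM + 0.1), and at 0.012 and 0.0031 without male LL mouse 1 or 2, where leaving out 1 library gave -0.11 to 0.012. Acot12 was at -0.37 with transcript length as an offset in PP mice and at 0.013 on protein-coding transcripts in LL mice. The interaction turned to 0.089 for Acot2 without male LL mouse 2 (-0.69 to 0.089 over these fits), to -0.026 and -0.068 for Acot8 with limma, and for Acot13 to -0.03 with the length offset, -0.41 and -0.42 with limma, -0.0019 without male LL mouse 3 and -0.04 without female LL mouse 4 (-0.04 to 0.25 over these fits).

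Depth of 3794671 to 6613905 estimated counts leaves Acot2 and Acot8 at fewer than 100 normalized counts in most libraries, and groups of 4 or 5 mice leave wide intervals. Acot1 with Acot2 and Acot3 with Acot4 cannot be fully told apart by reads, nor can reads shared across these pairs. Age, fragment length and genotype overlap in the design, and they cannot be told apart from genotype beyond the terms tried.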
